A study of Mus musculus with 4 samples.

Results

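Of the 27998 genes listed in every library, 9 genes of matrix-remodelling macrophages are described here: Spp1, Fn1, Tgfbi, Tgfb1, Trem2, Gpnmb, Cd9, Lpl and Fabp5. They were found by symbol, each matching 1 identifier. The 9 genes were chosen from measured values of these same libraries, their levels in macrophages with allergen against those without, and the rule set no threshold. The levels and ratios below are therefore a description, with no test. To profile the leukocytes of the nose, CD45+ cells (CD45 marks leukocytes) had been isolated from the nasal mucosa of C57BL/6 mice, 8 weeks old, and sequenced as single cells. Mice received vehicle or ribavirin, without OVA (the Vehicle and Ribavirin groups) or with it (Vehicle-OVA and Ribavirin-OVA), and each group is 1 library, so a difference between libraries has no replicate error beside it. OVA is ovalbumin, the allergen of a rhinitis model in which, per the study's methods, mice are sensitised by injection and then challenged through the nose, and ribavirin is an antiviral drug that the series title describes as a nasal spray. The number of mice per library is not given in the sources used here. All intervals are 95% intervals that cover counting error only, not the uneven spread of UMIs over cells.

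Macrophages in inflamed or healing tissue can take on a state in which they secrete matrix proteins and handle lipid. Osteopontin (Spp1), fibronectin (Fn1) and the TGF-beta-induced protein (Tgfbi) are secreted proteins that bind integrins, and Tgfb1 encodes the cytokine that induces Tgfbi and many other matrix genes. TREM2 is a lipid-sensing receptor that signals through the adaptor TYROBP, GPNMB is a membrane glycoprotein of lysosomes and the cell surface, and CD9 is a tetraspanin. Lipoprotein lipase (Lpl) frees fatty acids from lipoproteins and FABP5 carries them within the cell. Together these genes are known from lipid-associated and scar-associated macrophages of other tissues.

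The genes lie on 8 chromosomes in GRCm38, and all 9 are annotated as protein-coding. Spp1 is at chr5:104435118-104441050 and Fn1 at chr1:71585520-71653200. Tgfbi is at chr13:56609523-56639562 and Tgfb1 at chr7:25687002-25705077. Trem2 is at chr17:48346401-48354147, Gpnmb at chr6:49036546-49070929 and Cd9 at chr6:125460266-125494791. Lpl is at chr8:68880491-68907448 and Fabp5 at chr3:10012548-10016607.

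RefSeq promoters (build GRCm38.p6, 250 bases before to 50 bases after each start) were found for 6 of the 9 members, 7 promoters in all, and for none of Fn1, Lpl and Fabp5. Promoters of Spp1 and Trem2 are shown because these 2 genes differed in opposite directions with OVA. Spp1 has 2 promoters, of which the first is shown. The second, chr5:104435942-104436191 before its start, matched none of the motifs searched. The stretches are the bases before the start, 5' to 3' on the strand of the gene, with motif matches in capitals.

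Spp1, chr5:104434861-104435110, plus strand: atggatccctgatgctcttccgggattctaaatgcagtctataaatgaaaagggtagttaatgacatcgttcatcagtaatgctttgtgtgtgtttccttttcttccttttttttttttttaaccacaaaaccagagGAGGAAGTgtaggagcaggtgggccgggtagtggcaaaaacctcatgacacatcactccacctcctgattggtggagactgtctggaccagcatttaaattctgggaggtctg

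Trem2, chr17:48346151-48346400, plus strand: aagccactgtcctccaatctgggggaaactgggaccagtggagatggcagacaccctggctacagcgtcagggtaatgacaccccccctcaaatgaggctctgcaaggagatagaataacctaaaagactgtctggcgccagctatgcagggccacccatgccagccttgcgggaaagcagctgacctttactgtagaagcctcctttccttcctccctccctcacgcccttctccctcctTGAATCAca

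The capitals in the first Spp1 promoter mark GAGGAAGT, a PU.1-type element that starts 113 bases before the start. On either strand, 3.20% of all 32851 promoters held it. The capitals in the Trem2 promoter mark a match to TGANTCA, an AP-1-type element that starts 9 bases before the start. It was also matched in the Gpnmb promoter, after the start, and in 7.81% of all promoters. The E-box CACGTG (7.15% of all promoters), the M-box-type TCANGTGA (4.18%) and the STAT-type GAS element (6.95%) were matched in none of the 7 promoters of the members. A match is a description of letters and no measure of binding.

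The 4 libraries held 10311 to 28277 cell barcodes with 91742940 to 171873110 UMIs (unique molecular identifiers, which count captured RNA molecules), and their median depth was 3389 to 4952 UMIs per cell. No cell of Ribavirin had fewer than 1782 UMIs, whereas the other libraries went down to 500 or 501. Libraries shared 57 to 174 barcodes pairwise, at most 0.909% of either. After filters and doublet removal, 39 clusters were formed with the 9 members left out of the clustering genes, and 5 of the clusters were macrophage-like by 10 markers, among them C1qa, C1qb, C1qc, Csf1r, Adgre1, Mrc1, Cd68, Ms4a7 and Apoe. Without OVA they held 1995 cells (Vehicle) and 1693 cells (Ribavirin), and with OVA 2353 cells (Vehicle-OVA) and 1683 cells (Ribavirin-OVA). All 10 macrophage markers were detected in every library, at a summed level of 72009 CPM (a gene's UMIs per 1e+06 UMIs of the class) in Vehicle, 20883 in Vehicle-OVA, 64268 in Ribavirin and 26163 in Ribavirin-OVA. Different clusters held most of the class without and with OVA, cluster 9 (led by Col14a1, Fcrls and Ccl12) 72.7% and 69.3% of the cells in Vehicle and Ribavirin, and cluster 4 (led by Ccl24, Arg1 and Slc7a2) 90.4% and 86.7% in Vehicle-OVA and Ribavirin-OVA. The remaining clusters were 22 (Pf4, Fcrls and Apoe, with a median of 4243 UMIs per cell in Ribavirin and 806.5 to 1147 in the others), 32 (Crybb1, Sall1 and Sall3, with 6 of 6 microglia markers) and 33 (Cd209f, Lyve1 and Pla2g2d).

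The matrix proteins were far more abundant in macrophage-like cells of both OVA libraries. Spp1 stood at 99.9 CPM in Vehicle, 3647 in Vehicle-OVA, 93.7 in Ribavirin and 3023 in Ribavirin-OVA. The 2 libraries without OVA were alike, and both OVA libraries lay far above them with no overlap of intervals. The ratio with OVA was 36.5 (34.8 to 38.3) under vehicle and 32.3 (30.7 to 33.9) under ribavirin. Fn1 stood at 34.9, 3123, 96.4 and 2715 CPM in the same order of libraries. Its ratio with OVA was 89.5 (82.8 to 97.0) under vehicle and 28.2 (26.8 to 29.6) under ribavirin, the smaller ratio going with a higher level in Ribavirin than in Vehicle. With monocyte-like cluster 2 counted in the class, its log2 ratios were 4.43 and 3.45 in place of 6.48 and 4.82. Tgfbi stood at 649, 3294, 751 and 2407 CPM, so that it was already abundant without OVA, and its ratios were 5.08 (4.98 to 5.18) and 3.21 (3.14 to 3.27). When cells were picked by C1q and Csf1r UMIs instead of clusters, its log2 ratios were 1.63 and 0.90 in place of 2.34 and 1.68.

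The ligand differed less than its target. Tgfb1 stood at 175 CPM in Vehicle, 338 in Vehicle-OVA, 193 in Ribavirin and 318 in Ribavirin-OVA. Both OVA libraries lay above both without OVA, with ratios of 1.93 (1.86 to 2.02) under vehicle and 1.65 (1.58 to 1.73) under ribavirin. Neither reached 2-fold.

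Among the surface proteins, Trem2 went the other way. It stood at 601 CPM in Vehicle, 253 in Vehicle-OVA, 510 in Ribavirin and 337 in Ribavirin-OVA, the lowest levels being those of the OVA libraries. Its ratios were 0.421 (0.408 to 0.435) under vehicle and 0.661 (0.639 to 0.683) under ribavirin. The ratio under ribavirin lost its direction when monocyte-like cluster 2 was counted with the class, at a log2 ratio of 0.029 in place of -0.60, and that under vehicle was then -0.46 in place of -1.25. Meanwhile, Gpnmb was low throughout, at 23.0, 61.4, 24.0 and 74.7 CPM, with ratios of 2.67 (2.39 to 2.99) and 3.11 (2.77 to 3.49). Cd9 stood at 187, 392, 191 and 242 CPM. Its ratio was 2.10 (2.01 to 2.18) under vehicle and 1.26 (1.21 to 1.32) under ribavirin.

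The 2 lipid genes were unequal. Fabp5 stood at 468 CPM in Vehicle, 2271 in Vehicle-OVA, 378 in Ribavirin and 1851 in Ribavirin-OVA, with like ratios of 4.85 (4.74 to 4.96) and 4.90 (4.77 to 5.04). Lpl stood at 68.7, 95.9, 72.4 and 152 CPM. Its ratio was 1.40 (1.30 to 1.50) under vehicle and 2.11 (1.97 to 2.26) under ribavirin, and the Ribavirin-OVA library held the highest level.

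**Figure D1:**
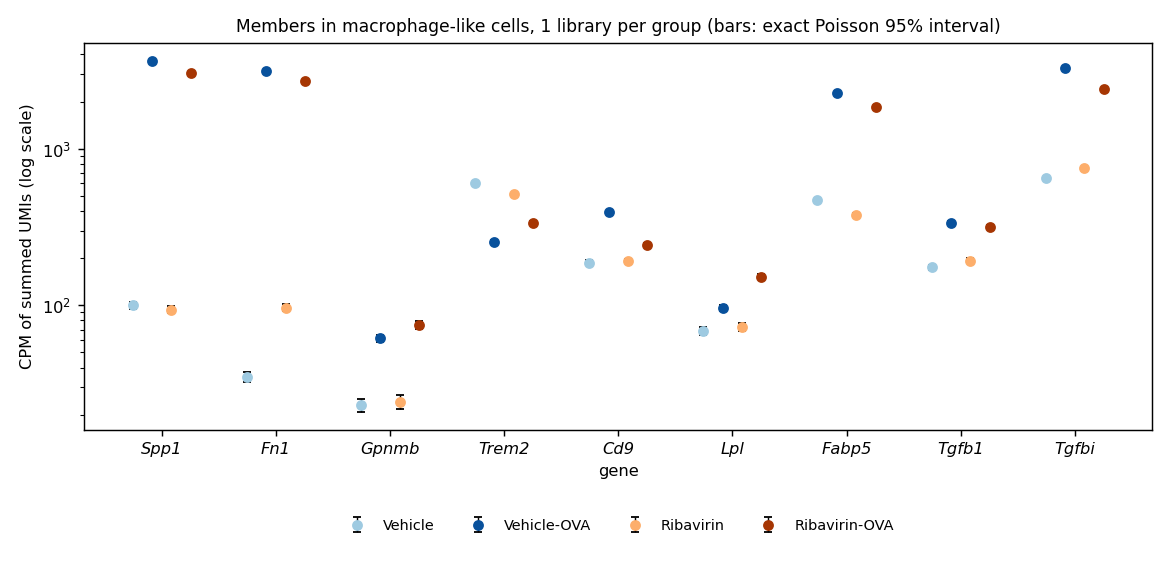
Level of each of the 9 members in macrophage-like cells (CPM of summed UMIs, log axis) in the 4 libraries, with exact Poisson 95% intervals that cover counting error only. Spp1 and Fn1 lie near 3000 CPM in both OVA libraries and under 100 CPM in both others, whereas Trem2 is lowest in the OVA libraries.

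Across the 11816 genes with at least 50 UMIs in the class, the median log2 ratio with OVA was 0.17 under vehicle and 0.22 under ribavirin, so ratios near this shift differ little from the bulk of genes. Less that median, Cd9 was at 0.12 under ribavirin and Lpl at 0.31 under vehicle, both on the log2 scale. At least 2-fold higher with OVA under vehicle were 6 of the 9 members, beside 10.5% of all genes, and 1 was at least 2-fold lower, beside 5.74%. Under ribavirin 6 members were at least 2-fold higher, beside 8.23% of all genes, and 0 at least 2-fold lower, beside 3.69%. Since the members were chosen on this contrast, nothing is read from these counts. Spp1 ranked 18 and 11 from the top of all genes under vehicle and ribavirin, and Fn1 ranked 8 and 13. Fabp5 ranked 218 and 99 and Tgfbi 201 and 245, while Cd9 ranked 1106 under vehicle and 4845 under ribavirin.

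**Figure D2:**
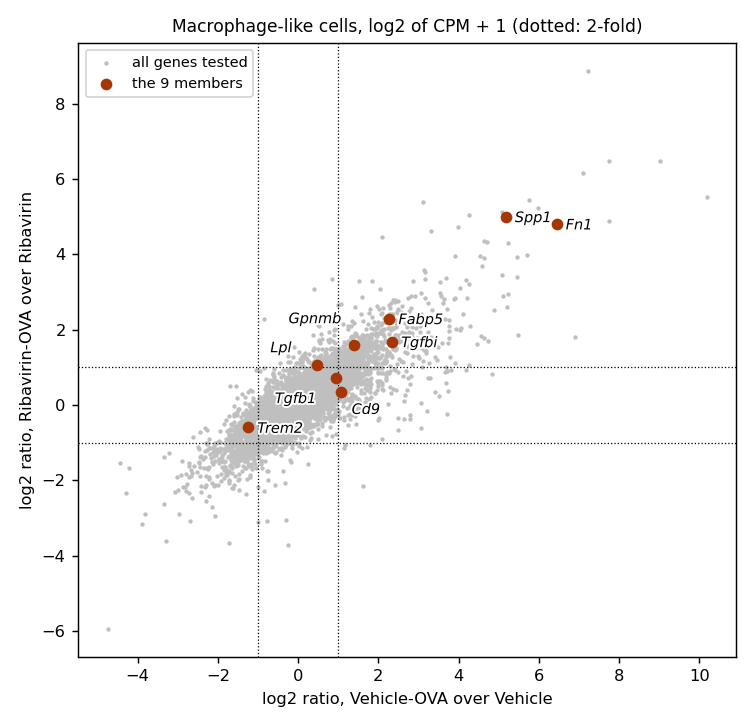
Log2 ratio with OVA in macrophage-like cells under vehicle (x axis) and under ribavirin (y axis) for the 11816 genes tested (grey) and the 9 members (brown), on log2(CPM + 1), with dotted lines at 2-fold. Spp1 and Fn1 lie at the upper right, Fabp5, Tgfbi and Gpnmb past 2-fold on both axes, and Trem2 below 0 on both.

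To see how far these differences held within a macrophage state, each member was followed in each of the 5 clusters. The clusters had been formed from all other genes of the same cells, and without OVA cluster 4 held 20 cells in Vehicle and 46 in Ribavirin, against 2128 and 1460 with OVA. Fn1 was higher with OVA in all 5 clusters under vehicle and under ribavirin, and every interval excluded 1. Cluster 33 held only 7 Fn1 UMIs in Vehicle-OVA, at 36.2 CPM. That is under the level of T cell-like cells in this library, which is read as background further on. In Ribavirin-OVA 1 cell held 49 of the 52 Fn1 UMIs of cluster 33. Without that cell its level was also under that of T cell-like cells. Whether Fn1 in cluster 33 exceeded background was not tested. In cluster 9 Fn1 stood at 32.9 CPM in Vehicle and 312 in Vehicle-OVA, a ratio of 9.49 (8.29 to 10.9), and at 50.3 in Ribavirin and 302 in Ribavirin-OVA, a ratio of 6.01 (5.31 to 6.80). In cluster 32 it stood at 30.6 CPM in Vehicle and 403 in Vehicle-OVA. Tgfbi was likewise higher with OVA in all 5 clusters in both arms, with 4 of 5 intervals above 1 in each. In cluster 9 its ratios were 2.04 (1.94 to 2.14) and 1.94 (1.85 to 2.04).

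Spp1 was split between clusters. Cluster 4 held 98.8% of the class's Spp1 UMIs in Vehicle-OVA and 99.5% in Ribavirin-OVA. In the 20 cluster 4 cells of Vehicle it stood at 4148 CPM against 3962 in Vehicle-OVA, but 1 cell held 607 of the 640 Spp1 UMIs, and without that cell the level was 240.5 CPM. In the 46 cells of Ribavirin it stood at 819 CPM against 3459 in Ribavirin-OVA. There 1 cell held 229 of 376 UMIs, and the level without it was 329 CPM. The level of Spp1 in cluster 4 without OVA thus rested on single cells. In cluster 9 the Spp1 ratio was 9.66 (8.83 to 10.6) under vehicle and 2.18 (1.86 to 2.55) under ribavirin. Of the 870 UMIs in Vehicle-OVA 1 cell held 302, and without it the level was 475 CPM in place of 710, against 73.5 in Vehicle.

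No cluster had a Fabp5 ratio as high as that of the class. In cluster 4 the ratio was 0.984 (0.890 to 1.09) under vehicle and 1.32 (1.22 to 1.42) under ribavirin. In cluster 9 it was 0.391 (0.342 to 0.445) and 0.841 (0.759 to 0.929). Of the 389 Fabp5 UMIs in the 20 Vehicle cells of cluster 4, 1 cell held 187. Without that cell the level was 1500 CPM in place of 2521, against 2480 in Vehicle-OVA. Under vehicle Fabp5 was lower with OVA in 4 of the 5 clusters, with 3 of these intervals below 1. Cluster 4 counted among the 4 only with its richest Vehicle cell included. Over the class Fabp5 was 4.85-fold higher. Under ribavirin it was higher in 4 of the 5, with 2 of these intervals above 1, and the ratio in cluster 32 was 2.38 (1.22 to 4.82). Cluster 4 cells held 99.4% of the class's Fabp5 UMIs in Vehicle-OVA.

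Trem2 was lower with OVA in all 5 clusters under vehicle, every interval lying below 1, with ratios of 0.551 (0.431 to 0.717) in cluster 4 and 0.694 (0.630 to 0.763) in cluster 9. In the 20 cluster 4 cells of Vehicle, 1 cell held 22 of the 64 Trem2 UMIs. Without that cell Trem2 stood at 306 CPM in place of 415, against 229 in Vehicle-OVA. Under ribavirin it was lower in 4 of 5 and 2 of these intervals included 1, the ratio in cluster 9 being 0.978 (0.904 to 1.06). Its highest levels were those of cluster 32, from 927 CPM in Vehicle-OVA to 1664 in Vehicle. Within cluster 4 Cd9 was lower with OVA, at 1030 CPM in Vehicle (583 without the richest cell) against 400.2 in Vehicle-OVA and at 418 in Ribavirin against 239 in Ribavirin-OVA. Gpnmb and Lpl were also lower there under vehicle, at 480 against 66.7 CPM and at 544 against 89.0 CPM. The Vehicle values rest on 20 cells, of which 1 held 32 of 74 Gpnmb UMIs and 1 held 42 of 84 Lpl UMIs. Without the richest cell they were 299.6 CPM for Gpnmb and 306 CPM for Lpl. Under ribavirin the ratio in cluster 4 was 0.685 (0.562 to 0.842) for Lpl and 0.943 (0.674 to 1.36) for Gpnmb. In cluster 9, in contrast, Lpl was higher with OVA in both arms, with ratios of 2.88 (2.48 to 3.33) and 2.13 (1.82 to 2.49). Gpnmb went in opposite directions there, with ratios of 0.186 (0.0599 to 0.438) under vehicle, from 5 UMIs in Vehicle-OVA, and 9.25 (7.57 to 11.3) under ribavirin, where 1 cell held 106 of the 206 UMIs of Ribavirin-OVA.

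**Figure D3:**
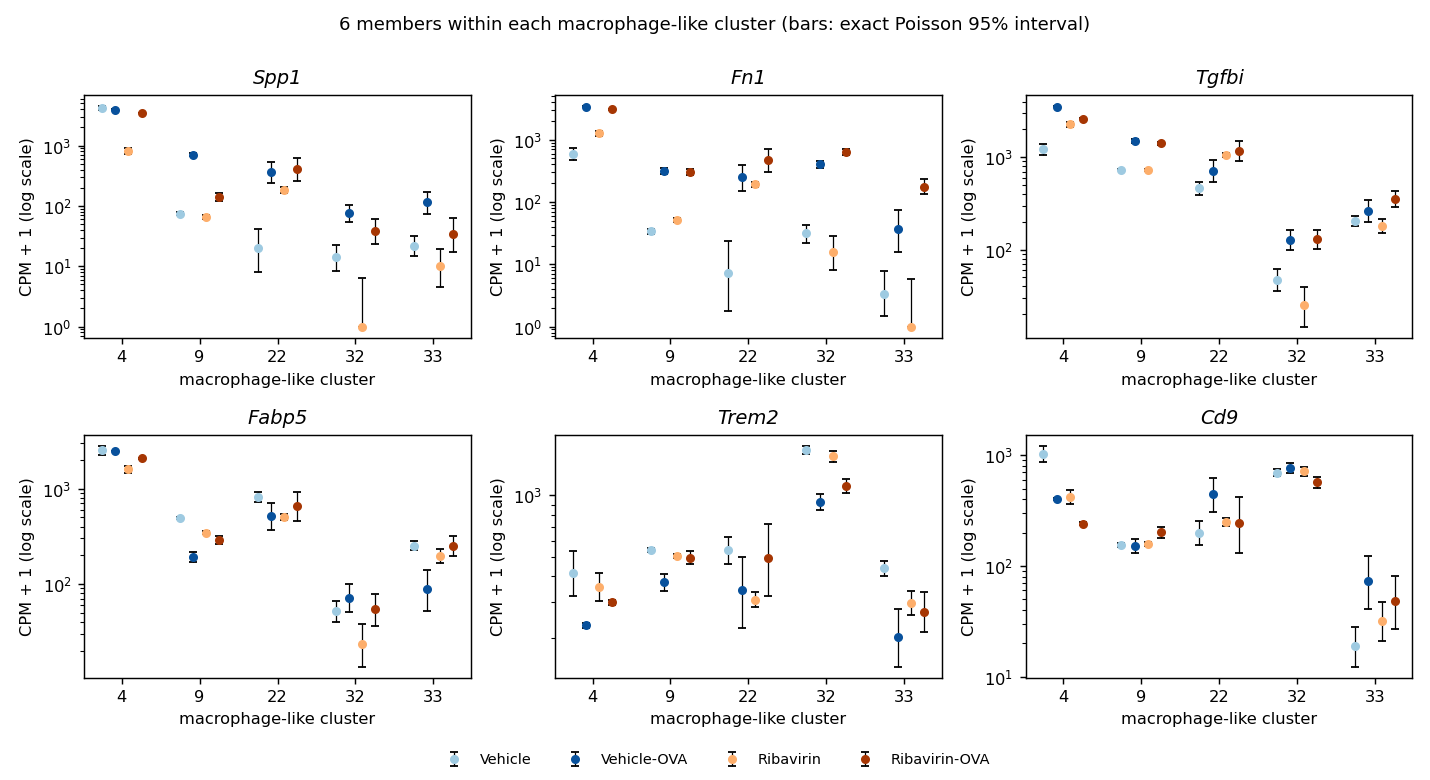
Level of 6 members (CPM + 1 on a log axis) in each macrophage-like cluster and library, with exact Poisson 95% intervals. Fn1 and Tgfbi are higher with OVA in every cluster, Trem2 is lower with OVA in every cluster under vehicle, and Fabp5 is high in cluster 4 in all 4 libraries. The Fn1 levels of cluster 33 rest on few UMIs or on a single cell.

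Furthermore, the members were compared across all classes of at least 50 cells. Without OVA, Spp1 was highest outside the macrophages, in unnamed cluster 3, a cluster led by the heat shock genes Hspa1b and Hspa1a and by Mreg whose nearest class was neutrophils. It stood there at 1277 CPM in Vehicle, 1396 in Vehicle-OVA, 554 in Ribavirin and 941 in Ribavirin-OVA. The macrophage-like cells held 24.8% of all Spp1 UMIs in Vehicle and 19.4% in Ribavirin, but 78.9% in Vehicle-OVA and 93.2% in Ribavirin-OVA. Fn1 was highest without OVA in unnamed cluster 17, led by Ace, Vcan and Cd300e, at 510 CPM in Vehicle and 703 in Ribavirin. There it stood at 1586 in Vehicle-OVA and 1310 in Ribavirin-OVA, ratios of 3.11 and 1.86. Monocyte-like cells (cluster 2, led by Ly6i, Cfb and Cxcl9) held 71.1% of the Fn1 UMIs in Vehicle and 2.45% in Vehicle-OVA, the class counting 2829 and 208 cells in these libraries. Whether cluster 2 is monocyte- or macrophage-like depended on the clustering setting. The macrophage-like class held 7724 cells here, but 12699 at resolution 0.5 and 12403 at resolution 2.0, beside 12741 with cluster 2 added. Shares and rankings of these 2 classes therefore hold for the main clustering only.

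Tgfbi was higher in monocyte-like than in macrophage-like cells of every library, at 1381, 3821, 1585 and 3011 CPM in the order Vehicle, Vehicle-OVA, Ribavirin and Ribavirin-OVA. Trem2 and Lpl, in contrast, were highest in macrophage-like cells of every library. The next class for Trem2 was always the monocyte-like cells, at 73.9 to 148 CPM. Cd9 was no macrophage gene by level, since cluster 3 held 2166 to 2756 CPM and neutrophil-like cells 757 to 1374. Macrophage-like cells ranked 5 to 9 of the classes for Cd9. Gpnmb was also highest in cluster 3, at 95.8, 224, 72.1 and 245 CPM in the order above, with overlapping intervals between its first 2 classes in Ribavirin only. Fabp5 was highest in cDC-like cells (conventional dendritic cells) without OVA, at 604 CPM in Vehicle and 719 in Ribavirin, and in macrophage-like cells with OVA. Tgfb1 was spread over the leukocytes, and with OVA it was highest in NK-like cells, at 492 CPM in Vehicle-OVA and 560.0 in Ribavirin-OVA.

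**Figure D4:**
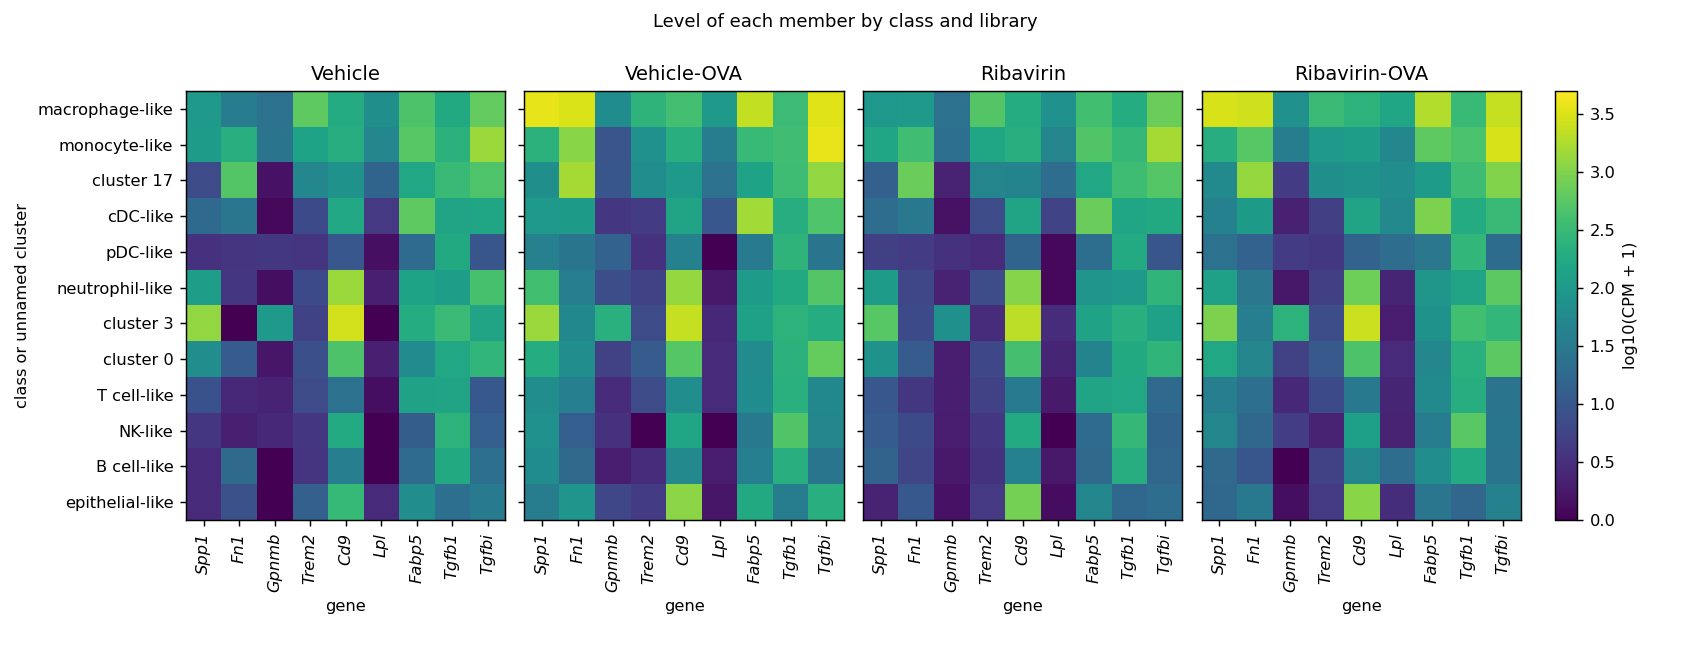
Level of each member, as log10(CPM + 1) in colour, in 12 classes or unnamed clusters (rows) for each library. Spp1, Fn1, Fabp5 and Tgfbi brighten in the macrophage-like row with OVA, Cd9 is brightest in cluster 3, and Tgfb1 is similar over most leukocyte rows.

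T cells are expected to lack most of these transcripts, so their values were read as background from free RNA. In T cell-like cells Spp1 stood at 7.47 CPM in Vehicle, 64.8 in Vehicle-OVA, 9.08 in Ribavirin and 36.8 in Ribavirin-OVA, and Fn1 at 1.54, 38.9, 2.95 and 21.5. These low levels were higher with OVA as well. To set shares of cells at equal depth, each cell was thinned to 1000 UMIs. Under vehicle, a Spp1 UMI was then found in 4.22% (3.36 to 5.22) of macrophage-like cells without OVA and in 45.2% (43.1 to 47.4) with OVA. Under ribavirin, it was found in 3.60% (2.77 to 4.60) and 36.9% (34.5 to 39.3). The shares of T cell-like cells with a Spp1 UMI, in the library order given for the levels, were 0.425%, 6.29%, 0.484% and 3.95%. Without thinning the macrophage shares of Spp1 were 11.9%, 69.1%, 12.9% and 63.5%. Median depths were 9185, 8403, 9359 and 8671 UMIs in macrophage-like and 4058 to 5082 in T cell-like cells, and thinning left out 98, 235, 0 and 121 macrophage-like cells. An Fn1 UMI was found in 2.00%, 67.2%, 5.02% and 62.3% of the thinned macrophage-like cells, against at most 1.88% of T cell-like cells in any library. A Trem2 UMI was detected in 41.0%, 17.3%, 34.4% and 24.2%, against at most 0.602% of T cell-like cells. The shares for Gpnmb were 1.11%, 3.07%, 0.768% and 3.91%, so that most cells held no UMI at this depth.

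The UMIs of several members were concentrated in few cells. The richest 10% of macrophage-like cells held 75.4% of the Spp1 UMIs in Vehicle-OVA and 83.7% in Ribavirin-OVA, and single cells reached 1301 and 2526 Spp1 UMIs. The richest 10% held 48.5% and 52.0% of the Fn1 UMIs and 32.9% and 37.6% of the Tgfbi UMIs in the same libraries. The median cell of Vehicle-OVA stood at 333 CPM for Spp1, 1546 for Fn1 and 2746 for Tgfbi, and that of Vehicle at 0, 0 and 388. Fn1 and Tgfbi were thus spread over more cells than Spp1.

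At 3000 UMIs per cell the median macrophage-like cell held a UMI of 2 members in Vehicle. At least 1 UMI of exactly 5 members was found in 5.00% of cells in Vehicle, 26.4% in Vehicle-OVA, 5.59% in Ribavirin and 24.7% in Ribavirin-OVA. Spp1 and Fn1 were found together in 52.0% of cells in Vehicle-OVA, 1.09 times the product of their shares, and in 45.8% in Ribavirin-OVA, 1.11 times the product. Fn1 alone was found in 81.1% and 78.0% of these cells, so the ratio could not lie far above 1. Without OVA the pair was found in 0.919% of cells in Vehicle and 1.95% in Ribavirin, 2.52 and 2.62 times the product. Of cells with a Spp1 UMI in Vehicle-OVA, 88.6% also held Fn1, against 70.6% of those without. Gpnmb was found in 9.70% of cells with Spp1 and 4.18% of cells without it in Vehicle-OVA, and in 10.5% and 4.17% in Ribavirin-OVA. Fn1 and Trem2 stood at 0.98 and 0.96 times the product in the 2 OVA libraries. These ratios share the cells' depth and clusters and are given as a description.

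**Figure D5:**
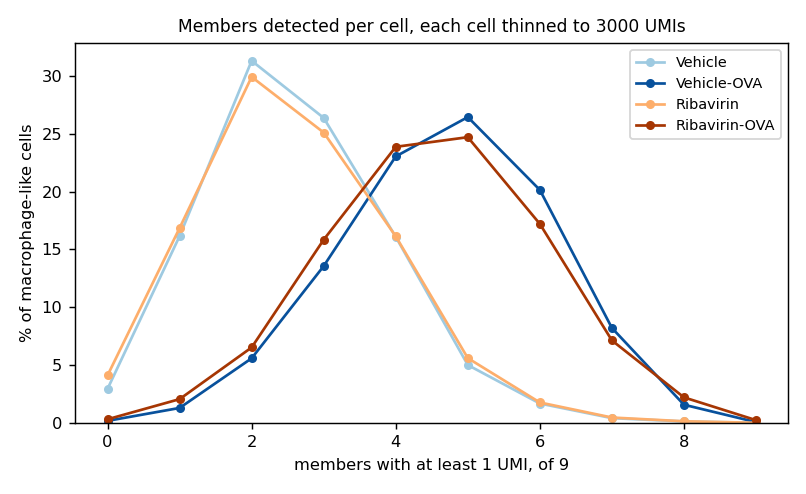
Share of macrophage-like cells (y axis, percent) by the number of the 9 members with at least 1 UMI (x axis), each cell thinned to 3000 UMIs, for the 4 libraries. The curves without OVA peak at 2 members and those with OVA at 5.

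The pathways around the members were described with lists of their partners, beside all genes of the class, of which 10.5% were at least 2-fold higher and 5.74% lower with OVA under vehicle, and 8.23% and 3.69% under ribavirin. Of 21 matrix proteins and matrix enzymes, 14 were at least 2-fold higher with OVA under vehicle and 2 lower, and 12 and 1 under ribavirin, with median log2 ratios of 2.51 and 1.27 beside 0.17 and 0.22 for all genes. Timp1, an inhibitor of metalloproteinases, stood at 0.668 CPM in Vehicle, 360.1 in Vehicle-OVA, 9.98 in Ribavirin and 325 in Ribavirin-OVA. Mmp12, the macrophage elastase, stood at 9.12, 546, 7.91 and 388 CPM, and Ctsk, a collagen-degrading cathepsin, at 0.668, 40.3, 0.852 and 36.7 CPM. Of the 12 receptors of osteopontin, fibronectin and TGFBI, 6 were at least 2-fold higher and 0 lower under vehicle, and 3 higher and 2 lower under ribavirin. Cd44, a receptor of osteopontin, stood at 67.3, 466, 88.1 and 339 CPM. Its ratios were 6.93 (6.53 to 7.36) and 3.85 (3.64 to 4.08).

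The 10 genes of the TREM2 adaptor and signalling list had 1 member at least 2-fold higher, about the share of all genes, and 2 lower in both arms. The lower ones were Tyrobp, the adaptor itself, with ratios of 0.443 and 0.458, and Apoe, a lipid-carrying ligand of TREM2, with ratios of 0.185 and 0.272. Of 20 tested genes of TGF-beta activation, receptors and signalling, 5 were higher and 2 lower under vehicle and 3 and 1 under ribavirin. Thbs1, an activator of latent TGF-beta, stood at 130, 741, 196 and 462 CPM in the order Vehicle, Vehicle-OVA, Ribavirin and Ribavirin-OVA. Furin, which cleaves the TGF-beta precursor, stood at 39.6, 162, 45.1 and 136 CPM. Among 20 tested genes of fatty acid and lipoprotein handling, 8 were higher under vehicle and 3 under ribavirin, and 0 were lower in either. Olr1, a receptor for oxidised lipoprotein, stood at 0.946, 84.5, 3.04 and 60.1 CPM.

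Of 17 lipid-associated macrophage partners, 5 were higher and 1 lower under vehicle and 4 and 1 under ribavirin. The lysosomal proteases Ctsl and Ctsb had ratios of 2.78 and 2.19 under vehicle and of 3.59 and 3.19 under ribavirin. The median log2 ratio of this list was -0.16 under vehicle and 0.57 under ribavirin. Among 10 tested tetraspanins other than Cd9, 1 was higher and 2 were lower in each arm. The lower ones were Cd81, at 592, 134, 497 and 168 CPM, and Cd82, at 79.3, 28.9, 71.2 and 26.8 CPM. The 10 dissociation stress genes had a median log2 ratio of -0.32 under vehicle and -0.75 under ribavirin.

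Markers of other cells were read in the macrophage-like class. The 8 neutrophil markers summed to 475 CPM in Vehicle, 1679 in Vehicle-OVA, 717 in Ribavirin and 554 in Ribavirin-OVA, and none was at 0. The 8 monocyte markers summed to 266, 1445, 498 and 1117 CPM and so moved with Spp1, Fn1 and Tgfbi. The 7 epithelial markers (14.7, 138, 25.8 and 118 CPM) and the 5 endothelial markers (13.3, 136, 20.2 and 111 CPM) moved with them too, at lower levels. The 7 osteoclast markers summed to 355, 844, 402 and 762 CPM, with Calcr at 0 in all 4 libraries and Oscar at 0 in all but Vehicle-OVA. The 6 stromal markers summed to at most 7.57 CPM in any library. The part of these cells and of free RNA in the results was not tested.

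The genes most like each member were taken by Pearson's r of log2(CPM + 1) over 72 pairs of class and library, of 21 classes or clusters and 14185 genes. The pairs share libraries and depth, and r is given as a description. Spp1 was most like Olr1 (0.87), Il1rn (0.84) and Plau (0.82). Among the genes most like Fn1 were Ccl9 (0.81) and Msr1 (0.81), and among those most like Trem2 were Msr1 (0.88) and Siglec1 (0.87). Those most like Lpl included Ms4a4a (0.88) and Ptpro (0.85). Tgfbi was most like Csf1r (0.94), Fcgr4 (0.92) and Clec4a3 (0.91). Fabp5 was most like Cxcl16 (0.81), Nxpe5 (0.80) and Dab2 (0.77), and Gpnmb like Slc3a2 (0.75), Gas2l3 (0.75) and Hspa5 (0.72). Cd9 was most like Kcnj2 (0.85), Bnip3 (0.81) and Dmxl2 (0.80), and Tgfb1 like Laptm5 (0.91), Elf4 (0.89) and Zfp36l2 (0.89).

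Ribavirin was compared with vehicle in macrophage-like cells without and with OVA. Without OVA the largest ratio among the members was that of Fn1, 2.76 (2.52 to 3.03), and the other 8 ratios lay between 0.806 for Fabp5 and 1.16 for Tgfbi. The Ribavirin library held 36.5% of its macrophage-like Fn1 UMIs in the 46 cells of cluster 4 and 22.7% in cluster 22. In Vehicle these shares were 14.5% and 0.319%. Of all UMIs of the class, clusters 4 and 22 held 2.79% and 11.4% in Ribavirin and 0.859% and 1.77% in Vehicle. When cells were picked by C1q and Csf1r UMIs instead of clusters, the log2 ratio of Fn1 was 0.62 in place of 1.47. With OVA the ratios ran from 0.617 (0.595 to 0.640) for Cd9 to 1.59 (1.50 to 1.68) for Lpl, Trem2 stood at 1.33 (1.29 to 1.38), and none reached 2-fold. The Ribavirin-OVA library thus held less Cd9, Tgfbi, Spp1, Fabp5, Fn1 and Tgfb1 and more Lpl, Trem2 and Gpnmb than Vehicle-OVA, with every interval excluding 1.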

How the data were processed

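Nasal mucosa had been digested enzymatically, and CD45+ cells had been taken with magnetic beads per the labels (the series text names flow sorting). For each library the authors deposited UMI counts per gene and cell barcode, not normalised, and the submitters' processing notes name Cell Ranger 5.0.0 and mm10. The members and gene lists were chosen with earlier results of these data known.

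From the deposited counts, cells were retained that had 500 or more UMIs, 200 or more genes and less than 10% of UMIs from mitochondrial genes. Doublet scores came from simulated doublets in each library. The usual threshold between the modes marked 0 cells in Vehicle-OVA, so the highest scores up to 0.4% per 1000 barcodes were removed instead, which marked 3.64% to 11.2% of cells and left 22835 cells in Vehicle, 16198 in Vehicle-OVA, 18552 in Ribavirin and 8496 in Ribavirin-OVA. Counts were log-normalised, 2000 variable genes without the 9 members gave 30 principal components, and a graph of 15 neighbours was clustered over all libraries by the Leiden algorithm at resolution 1.0 (igraph 0.11.9, Python 3.11.15) with no batch correction. A cluster took the class of its best marker list if at least 3 markers were 2-fold over other cells and found in 10% of its cells, unless its 10 leading genes held more markers of another class, and 11 of 39 clusters stayed unnamed. Classes are written with "-like" because the names were rebuilt here.

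Per class and library, UMIs were added up and given as CPM with exact Poisson intervals, ratios with exact conditional binomial intervals and shares of cells with exact Clopper-Pearson intervals. No test across samples was possible with 1 library per group. Of these steps only the ratios and their intervals were run on simulated data, drawn with the Poisson counting error that the intervals assume. Those draws lack the uneven spread of UMIs over cells, so they cannot show how well the intervals cover in the real data. Ratios over all genes used a pseudocount of 1 CPM and left out genes under 50 UMIs in the class. Named beside the members were up to 4 genes per list with the largest mean log2 ratio with OVA, the 3 genes most like each member, and 3 leading genes per macrophage-like cluster. Some genes that this rule names are not reported here. The leading genes of clusters 2, 3 and 17 and the marker lists singled out were named after their values were seen. Gene positions are from GENCODE M21 (GRCm38) and promoters from RefSeq. Since 3' UMI counts do not give a common scale between genes, words such as low or abundant describe counted UMIs and not amounts of RNA. The alternatives tried are given in the closing section.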

Additional observations from a re-analysis of the deposited data

Results flagged for a closer look

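Ribavirin against vehicle had opposite directions without and with OVA in macrophage-like cells for 4 members, and with 1 library per group the difference between these directions was not tested. Fn1 had a log2 ratio of 1.47 without OVA and -0.20 with OVA. Trem2 had -0.24 and 0.41, Tgfbi 0.21 and -0.45, and Tgfb1 0.14 and -0.085. The Tgfbi value without OVA turned to -0.013 when cells were picked by their C1q and Csf1r UMIs with no clustering.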

How the results depend on the processing

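The ratios of the 9 members with OVA were recomputed under 16 alternatives: other limits on mitochondrial UMIs and depth, doublets kept, other resolutions, members among the clustering genes, libraries clustered apart, a gate on C1q and Csf1r UMIs, other scalings and weights, thinning, and other clusters in the class. Adding monocyte-like cluster 2, or leaving out cluster 22, was chosen after seeing the data. The class without clusters of osteoclast markers could not be formed, since no macrophage-like cluster had 3 of them. Under vehicle the direction held for all 9 members under all 16 alternatives. Under ribavirin it turned for Trem2 alone, to 0.029 with cluster 2 added. Of the ratios for ribavirin, that of Tgfbi without OVA turned to -0.013 under the gate, and those whose interval included 1 (Spp1, Gpnmb, Cd9 and Lpl without OVA) kept their sign under 9, 5, 13 and 15 of the 16. The count of members at least 2-fold lower under vehicle was 0 in place of 1 with at least 2000 UMIs per cell, at resolutions 0.5 and 2.0, with members among the clustering genes, under the gate and with cluster 2 added, while the other 3 counts stayed within 1.5 times. The log2 ratio under vehicle ranged from 4.43 to 6.85 for Fn1, from 1.61 to 2.52 for Tgfbi and from -1.56 to -0.46 for Trem2. Under ribavirin Fn1 ranged from 3.45 to 5.02, Tgfbi from 0.90 to 1.76, Spp1 from 4.38 to 5.20, Gpnmb from 0.96 (mitochondrial limit 5%) to 2.24 (without cluster 22) and Cd9 from 0.067 to 0.46. No paired analysis was possible because each group has 1 library and no replicate number. Intervals cover counting error only, not differences between mice.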
